A study of Mus musculus with 20 samples.

Results

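The glutathione transferases and glutathione peroxidases were taken as every gene symbol formed of Gst with a class letter and a number, of Mgst with a number, or of Gpx with a number. The rule found 33 of the 55367 genes listed, and it used no measured value. They comprised 22 soluble transferases (Gst), 3 microsomal transferases (Mgst) and 8 peroxidases (Gpx). Of these, 25 passed the filter on low counts (17 Gst, 3 Mgst and 5 Gpx) and could be tested.

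The study sequenced polyadenylated RNA from hearts of wild-type C57BL/6J pups kept from birth to postnatal day 4 in 100% oxygen (hyperoxia) or in 21% oxygen (room air). The 4 groups were the hyperoxic left atrium, the room-air left atrium, the hyperoxic left ventricle and the room-air left ventricle, with 5 libraries each and with no transgene or deletion in any group. Nursing dams of both oxygen levels changed places daily. The series text counts 5 individual mice per group and does not state whether an atrium and a ventricle of the same number came from the same pup. Values are read counts normalised to scaled library size (CPM). Per-library values are listed in the order of the library numbers, which run from 1 to 5, except in the hyperoxic ventricle, where they are 1, 2, 4, 5 and 6. Spreads are SD over n = 5 libraries per group. A log2 difference is hyperoxia minus room air or atrium minus ventricle, with its standard error (SE). The threshold for passing was an adjusted p of 0.05 in the quasi-likelihood F-test of edgeR, adjusted over the 16598 genes tested.

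Glutathione transferases couple the tripeptide glutathione to electrophilic compounds, among them products of lipid oxidation, and are sorted into classes by sequence (alpha, kappa, mu, omega, pi, theta and zeta). The microsomal enzymes are membrane proteins of an unrelated fold, and some of them also make the leukotriene LTC4. Glutathione peroxidases reduce hydrogen peroxide and lipid hydroperoxides with electrons from glutathione, and Gpx1, Gpx2, Gpx3 and Gpx4 do so through a selenocysteine. Many transferase genes are known targets of NRF2, a factor that binds antioxidant response elements in promoters.

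Sequence before the start site is shown for Gsto1 and Gstm1, the transferases with the smallest adjusted p among those higher in the hyperoxic atrium, and for Gsta3, which rose there too and holds a motif. Each is read along its gene's strand in GRCm38.p6 as listed by RefSeq and ends before the gene as annotated by GENCODE. Capitals mark the core of the antioxidant response element (TGACNNNGC, either strand). The stretches lie at chr19:47854723-47854969 on the plus strand (Gsto1), chr3:108017974-108018223 on the minus strand (Gstm1) and chr1:21240335-21240584 on the plus strand (Gsta3).
Gsto1: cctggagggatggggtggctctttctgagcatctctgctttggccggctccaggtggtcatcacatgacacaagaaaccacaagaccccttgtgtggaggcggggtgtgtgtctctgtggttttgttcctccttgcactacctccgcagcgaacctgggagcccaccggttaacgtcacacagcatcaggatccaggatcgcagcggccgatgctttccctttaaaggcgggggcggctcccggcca
Gstm1: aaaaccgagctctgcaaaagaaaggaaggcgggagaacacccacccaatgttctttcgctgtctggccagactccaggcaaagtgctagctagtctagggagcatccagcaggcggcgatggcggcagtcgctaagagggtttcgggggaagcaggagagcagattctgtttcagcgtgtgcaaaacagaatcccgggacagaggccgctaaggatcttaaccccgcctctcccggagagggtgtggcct
Gsta3: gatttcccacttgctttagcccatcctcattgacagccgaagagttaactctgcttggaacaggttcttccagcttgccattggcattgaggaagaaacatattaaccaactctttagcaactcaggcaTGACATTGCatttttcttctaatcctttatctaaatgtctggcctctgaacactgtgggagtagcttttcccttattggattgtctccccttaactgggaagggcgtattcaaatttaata

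RefSeq gave 43 windows of 300 bases, from 250 before to 50 after the start, for 31 of the 33 genes. The core was found in 4 of them, in Gsta3, Gstm5, Gstm7 and Mgst1. Over all 32851 windows 12.4% held it, and over the 15464 windows of tested genes 14.1% did. The other sites, each with 8 bases on either side, lie at chr3:107895804-107895828 on the plus strand (Gstm5), chr3:107931727-107931751 on the minus strand (Gstm7) and chr6:138140463-138140487 on the plus strand (Mgst1, where the core reads along the opposite strand).
Gstm5: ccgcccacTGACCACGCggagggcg
Gstm7: tgaagaccTGACAAAGCgaagccaa
Mgst1: ggggcttgGCACGGTCAggaggcgg

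In the hyperoxic atrium Gsta3 and Mgst1 rose, Gstm7 fell and Gstm5 did not pass. A site of the stress factor ATF4 (TGATGNAA, either strand) was in 3.97% of all windows, in 2.27% of the windows of tested genes and in 0 of the 43.

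Before the results, some libraries stood apart. Each library held between 26510081 and 38244117 counts. The length slope of a library, that is the slope over 11150 genes of log2 CPM relative to its chamber on log2 exon length, was -0.289 and -0.282 in hyperoxic atria 2 and 4 and -0.22 in room-air ventricle 4, against -0.069 to 0.133 in the other libraries. In these 3 libraries short transcripts took a larger share. Sex is not in the labels. All 10 room-air libraries had more Y-linked than Xist reads, whereas among hyperoxic libraries this held for atrium 2 and for ventricles 2 and 6. None of the 33 genes lies on the X or the Y chromosome. Myl7, an atrial myosin light chain, had 2.66 to 128 CPM in hyperoxic ventricles and 19.5 to 530 CPM in room-air ventricles. Results that moved with these features are given below with the values obtained without the tilted libraries or within the libraries with more Y-linked reads. The libraries with more Y-linked reads include 1 hyperoxic atrium, the tilted library 2, which is assumed to vary like the other groups.

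Atrial markers went with the chamber labels. Myl7 was at 4330 to 11400 CPM in hyperoxic and 6300 to 8450 CPM in room-air atria. The tilted hyperoxic atria 2 and 4 had 11400 and 10200 CPM. Hyperoxic atria 1, 3 and 5 had 4330, 5380 and 5460 CPM, below every room-air atrium. The ventricular marker Myl2 was at 328 CPM in room-air atrium 1 and at 5.59 to 22 CPM in the other atria. Fibroblast markers (7 genes) summed to 5660 to 8060 CPM in hyperoxic atria and 11500 to 13000 CPM in room-air atria, with 1 member higher and 6 lower. Endothelial markers (7 genes) summed to 683 to 877 CPM in hyperoxic and 940 to 1110 CPM in room-air atria, with 1 higher and 6 lower. Macrophage markers (7 genes) summed to 220 to 343 CPM in hyperoxic and 171 to 178 CPM in room-air atria, with 5 higher and none lower. In the ventricle, endothelial markers summed to 1370 to 1550 CPM in hyperoxic and 1640 to 1940 CPM in room-air ventricles (3 lower), and erythroid markers (7 genes) to 908 to 1270 CPM in hyperoxic and 1810 to 2860 CPM in room-air ventricles (2 lower). Macrophage markers summed to 108 to 130 CPM in hyperoxic and 84.9 to 105 CPM in room-air ventricles (2 higher). In the atrium 2 of 7 smooth muscle and pericyte markers were higher and 5 lower (sums of 985 to 1350 CPM in hyperoxic and 1120 to 1280 CPM in room-air atria), and 4 of 5 ventricular cardiomyocyte markers were lower (588 to 999 CPM in hyperoxic and 805 to 1220 CPM in room-air atria). No marker of any list was at 0 throughout. In bulk tissue, fewer cells of a type and less RNA per cell cannot be told apart, and the part of these shifts in the results below was not tested.

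Per kilobase of exon, Gpx3, a peroxidase secreted into plasma and matrix, led in the atrium with 726 ± 119 CPM per kb in hyperoxia and 819 ± 97.1 CPM per kb in room air. Gpx1, the cytosolic and mitochondrial peroxidase, followed with 173 ± 48.4 CPM per kb in hyperoxic and 108 ± 13 CPM per kb in room-air atria. Gpx4, which reduces phospholipid hydroperoxides within membranes and restrains ferroptosis, came next with 146 ± 48.5 CPM per kb in hyperoxic and 97.3 ± 8.23 CPM per kb in room-air atria. Within 1 SD, Gpx1 and Gpx4 overlapped in both atrial groups. In the ventricle the order was another. Mgst3, a microsomal transferase with peroxidase activity, led there with 180 ± 13.4 CPM per kb in hyperoxia and 240 ± 58.7 CPM per kb in room air. It was followed by Gpx4 (148 ± 14.3 CPM per kb in hyperoxia, 183 ± 38.8 CPM per kb in room air), Gpx1 (88.8 ± 12.8 and 118 ± 17.4 CPM per kb in the same groups) and Gpx3 (71.9 ± 8.02 and 104 ± 26.1 CPM per kb). Within 1 SD, Mgst3 and Gpx4 overlapped in room-air but not in hyperoxic ventricles, Gpx4 and Gpx1 overlapped in neither, and Gpx1 and Gpx3 overlapped in both. Gsto1 stood at rank 11 of the 25 in hyperoxic atria with 42.2 ± 9.51 CPM per kb, and at rank 14 in room-air atria with 11.9 ± 1.18 CPM per kb.

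The 8 genes that did not pass the filter were nearly silent in every group. Gpx5, an epididymal enzyme, had 0 counts over the 20 libraries, which allows up to 3 counts of the total. Gpx6 had 1 count, Gstt4 4, Gsta2 6, Gpx2 (the gut peroxidase) 15, Gstm3 22, Gstp3 28 and Gsta1 47 counts over all 20 libraries. None exceeded 13 counts in a library. Of the 28 counts of Gstp3, 19 came from hyperoxic atria, 1 from room-air atria, 4 from hyperoxic ventricles and 4 from room-air ventricles.

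In the atrium individual genes differed between hyperoxia and room air in both directions. Of the 25 tested, 7 were higher and 5 lower, which is 48.0% against 43.9% of all genes tested. Among all genes 19.7% were higher and 24.2% lower, so the members' share of calls lay near the background. The median log2 difference over the 25 was 0.01, against -0.06 over all genes. In 6 of those higher and in 5 of those lower no hyperoxic library overlapped a room-air library. Over all genes 32.9% did not overlap, 13.6% with hyperoxia above and 19.3% with hyperoxia below. With upper-quartile scaling the same 7 were higher and 2 were lower, where 43.7% of all genes passed. With the length slope as a covariate 3 were higher and 11 lower, where 40.2% of all genes passed.

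Gsto1, an omega-class enzyme that uses a catalytic cysteine to remove glutathione from proteins and to reduce dehydroascorbate, had the smallest p. It stood at 69.8, 112, 74.8, 99.4 and 70.9 CPM in hyperoxic atria, against 22, 22.5, 23.4, 27.9 and 24.9 CPM in room-air atria. Every hyperoxic atrium lay above every room-air atrium by a wide margin, tilted or not. The log2 difference was 1.82 (SE 0.147, 3.54-fold, adjusted p = 3.99e-09). It was 1.57 without the tilted libraries (adjusted p = 1.04e-10). Within the libraries with more Y-linked reads, where the tilted library 2 is the only hyperoxic atrium, it was 2.22. Gsto2, the neighbour of Gsto1 on the same strand, was scarce, at 0.77, 1.25, 1.12, 1.41 and 1.03 CPM in hyperoxic atria and 0.312, 0.565, 0.521, 0.44 and 0.491 CPM in room-air atria. Its groups did not overlap, and it rose by 1.24 on the log2 scale (SE 0.387, adjusted p = 0.0123). Within the libraries with more Y-linked reads it was 1.41 (adjusted p = 0.0595), and with the length slope as a covariate 0.81 (adjusted p = 0.132).

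Gsto1 lies at chr19:47854970-47864790 and Gsto2 at chr19:47865534-47886324 in GRCm38, both on the plus strand. Over the libraries Gsto1 had 15453 counts in hyperoxic and 4571 in room-air atria, while Gsto2 had 201 and 89 counts in the same groups. Gsto2 thus rested on 31 to 46 counts a library in hyperoxia and 11 to 24 in room air.

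Among the mu-class transferases, which conjugate many reactive epoxides and aldehydes, the 2 that passed went opposite ways. Gstm1 had 69.9, 103, 68.6, 91.6 and 69.9 CPM in hyperoxic atria, against 47.1, 47.3, 49.3, 57.7 and 61.6 CPM in room-air atria. Gstm7 had 7.77, 11.2, 6.51, 12.5 and 9.24 CPM in hyperoxic atria, against 15.2, 16.0, 14.3, 17.2 and 18.1 CPM in room-air atria. Neither gene's groups overlapped. Gstm1 rose by 0.62 (SE 0.122, adjusted p = 0.000318) and Gstm7 fell by 0.78 (SE 0.160, adjusted p = 0.000454) on the log2 scale. Gstm1 kept its call without the tilted libraries (0.40, adjusted p = 0.00237). Within the libraries with more Y-linked reads, where the tilted library 2 is the only hyperoxic atrium, Gstm1 was at 0.97. Gstm7 was at -1.05 without the tilted libraries (adjusted p = 5.78e-06) and at -0.53 within the libraries with more Y-linked reads, where it did not pass (adjusted p = 0.068).

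These genes belong to a cluster of 7 Gstm genes on chromosome 3, between 107895821 and 108044894. The other tested ones, Gstm2, Gstm4, Gstm5 and Gstm6, had log2 differences of -0.01 to 0.01 and did not pass. The summed level of the cluster was 237 ± 44.3 CPM in hyperoxic and 215 ± 15.7 CPM in room-air atria, a gap smaller than the spread of the hyperoxic atria. The Gstm genes resemble each other in sequence, as do Gstp1 and Gstp2 and the Gstt genes, so the counting may have divided reads between them and their values carry that uncertainty.

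The theta-class gene Gstt1, whose enzyme acts on small halogenated compounds and hydroperoxides, gave the strongest fall. It had 7.5, 12, 7.41, 10.5 and 9.04 CPM in hyperoxic atria, against 19.3, 21.6, 17.8, 19.5 and 19.5 CPM in room-air atria. All hyperoxic atria lay below all room-air atria. The log2 difference was -1.08 (SE 0.134, adjusted p = 1.47e-06), with -1.29 without the tilted libraries (adjusted p = 3.74e-08). Within the libraries with more Y-linked reads, where the tilted library 2 is the only hyperoxic atrium, Gstt1 was at -0.71. Its chromosome 10 neighbour Gstt3 was at 2.31 ± 0.119 CPM in hyperoxic and 3.29 ± 0.498 CPM in room-air atria. Gstt3 passed narrowly, at -0.51 (SE 0.206, adjusted p = 0.0498), and lost its call under 26 of 35 other settings, among them leaving out any hyperoxic atrium, hyperoxic ventricle 1, 5 or 6, any of room-air atria 2 to 5 or any of room-air ventricles 2 to 5. Gstt2, which lies beside them, was at -0.28 and did not pass, and Gstt4 was not tested. Gstt3 shares 524 exonic bases with the overlapping model Gm20441 on the same strand.

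**Figure D1:**
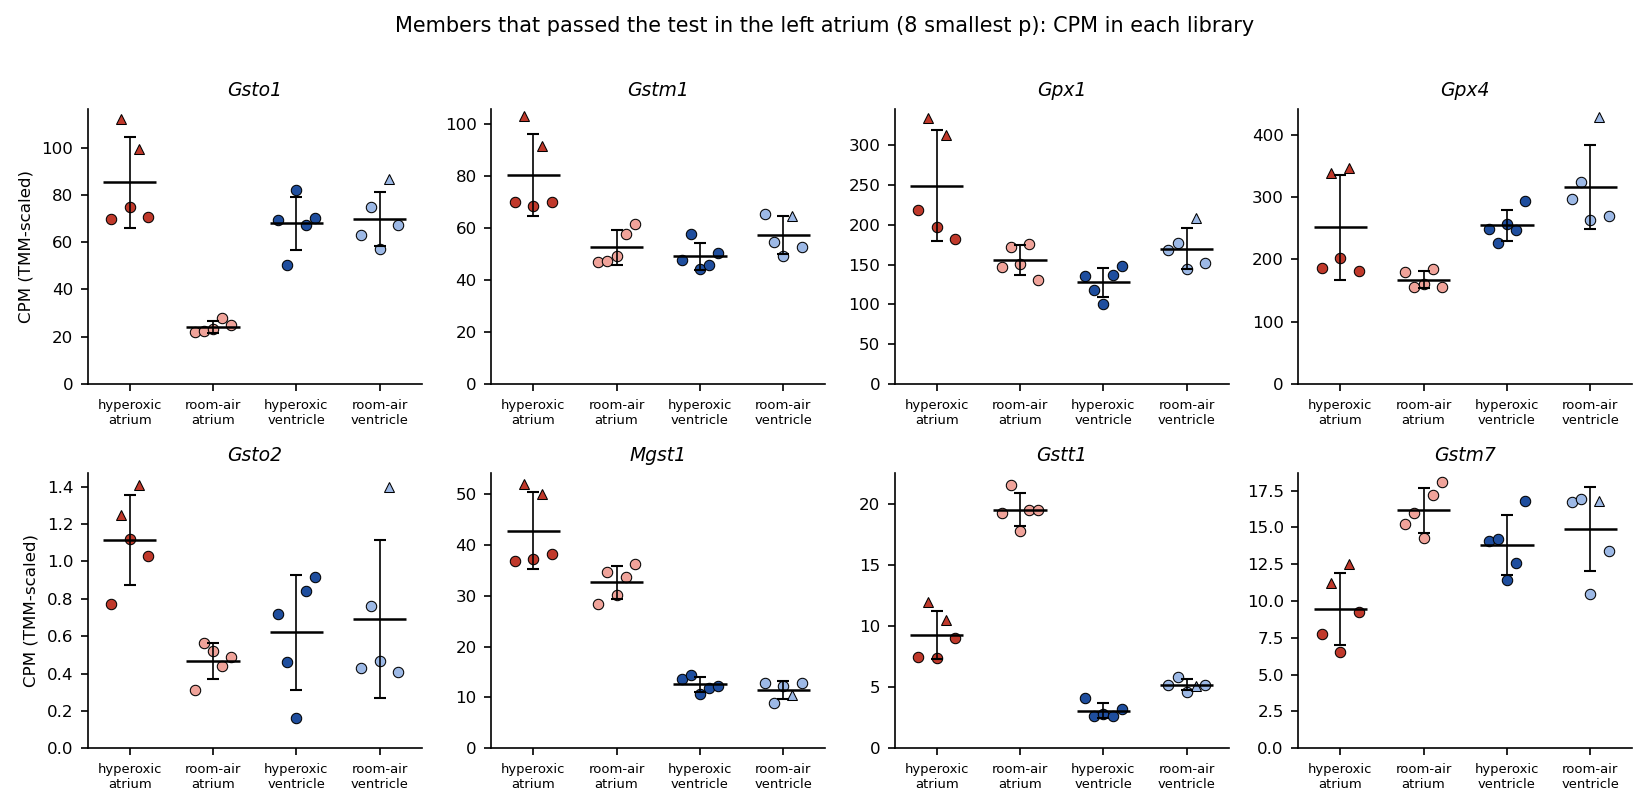
Normalised level (CPM, linear axes from 0) of the 8 genes with the smallest p in the atrial comparison, by group. Points are libraries, triangles the 3 tilted libraries, bars the mean and SD over n = 5. Gsto1 separates the atria most clearly (85.4 ± 19.2 CPM in hyperoxic atria, 24.1 ± 2.38 CPM in room air), and in Gpx1 and Gpx4 both triangles of the hyperoxic atrium lie above its circles.

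Both abundant intracellular peroxidases were called higher, with unequal support. Gpx1 had 218, 334, 197, 313 and 182 CPM in hyperoxic atria, against 147, 172, 151, 176 and 131 CPM in room-air atria. The groups did not overlap, although the tilted libraries 2 and 4 held the top values. The log2 difference of Gpx1 was 0.68 (SE 0.154, adjusted p = 0.00116). It was smaller but still passed without the tilted libraries (0.36, adjusted p = 0.0109). Within the libraries with more Y-linked reads, where the tilted library 2 is the only hyperoxic atrium, it was 1.10. Gpx4 had 186, 338, 203, 347 and 182 CPM in hyperoxic atria, against 180, 156, 161, 185 and 155 CPM in room-air atria. The tilted libraries 2 and 4 stood clear of room air, and libraries 1, 3 and 5 lay at or near its upper end. Its log2 difference of 0.58 (SE 0.169, adjusted p = 0.00776) came to 0.18 without the tilted libraries (adjusted p = 0.11) and to 0.08 with the length slope as a covariate (adjusted p = 0.38). Within the libraries with more Y-linked reads, where the single hyperoxic atrium left is a tilted library, Gpx4 was at 1.01 (adjusted p = 0.000721).

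The microsomal genes divided. Mgst1, the enzyme of the endoplasmic reticulum and outer mitochondrial membrane, had 36.8, 51.9, 37.1, 50.0 and 38.1 CPM in hyperoxic atria, against 28.3, 34.7, 30.2, 33.6 and 36.3 CPM in room-air atria. The groups stood apart by a small gap, and Mgst1 rose by 0.39 on the log2 scale (SE 0.122, adjusted p = 0.0128). The call was lost without the tilted libraries (0.20, adjusted p = 0.171). Within the libraries with more Y-linked reads it was 0.67 (adjusted p = 0.00602), where the single hyperoxic atrium is the tilted library 2, the highest of the group. Mgst2, which can form leukotriene LTC4, had 0.869, 1.3, 1.21, 1.57 and 1.57 CPM in hyperoxic atria, against 2.78, 2.61, 2.11, 2.12 and 2.02 CPM in room-air atria. No hyperoxic atrium reached a room-air atrium. Mgst2 fell by 0.84 on the log2 scale (SE 0.324, adjusted p = 0.04), a call that 15 of 35 other settings lost. Mgst3 was at 88.8 ± 33.2 CPM in hyperoxic and 81.6 ± 5.69 CPM in room-air atria, and its 0.12 did not pass.

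Gsta3, an alpha-class enzyme known in mice for detoxifying aflatoxin epoxide, averaged 3.06 ± 1.42 CPM in hyperoxic and 1.2 ± 0.217 CPM in room-air atria. The groups did not overlap, with 1.85 CPM as the lowest hyperoxic and 1.5 CPM as the highest room-air value, and it rose by 1.35 on the log2 scale (SE 0.478, adjusted p = 0.0265). Without the tilted libraries it was 0.83 (adjusted p = 0.209). Gstp2, a pi-class gene, averaged 1.18 ± 0.337 CPM in hyperoxic and 1.91 ± 0.216 CPM in room-air atria and fell by 0.69 on the log2 scale (SE 0.265, adjusted p = 0.0385). That call was lost under 14 of 35 other settings, among them those without hyperoxic atrium 4 or 5, hyperoxic ventricle 5 or any of room-air atria 1 to 4. The calls of Mgst2 were likewise lost without hyperoxic atrium 1, 2 or 3, without hyperoxic ventricle 5 or without any room-air atrium, and that of Gsta3 without hyperoxic atrium 2 or 4 or room-air atrium 1 or 3.

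**Figure D2:**
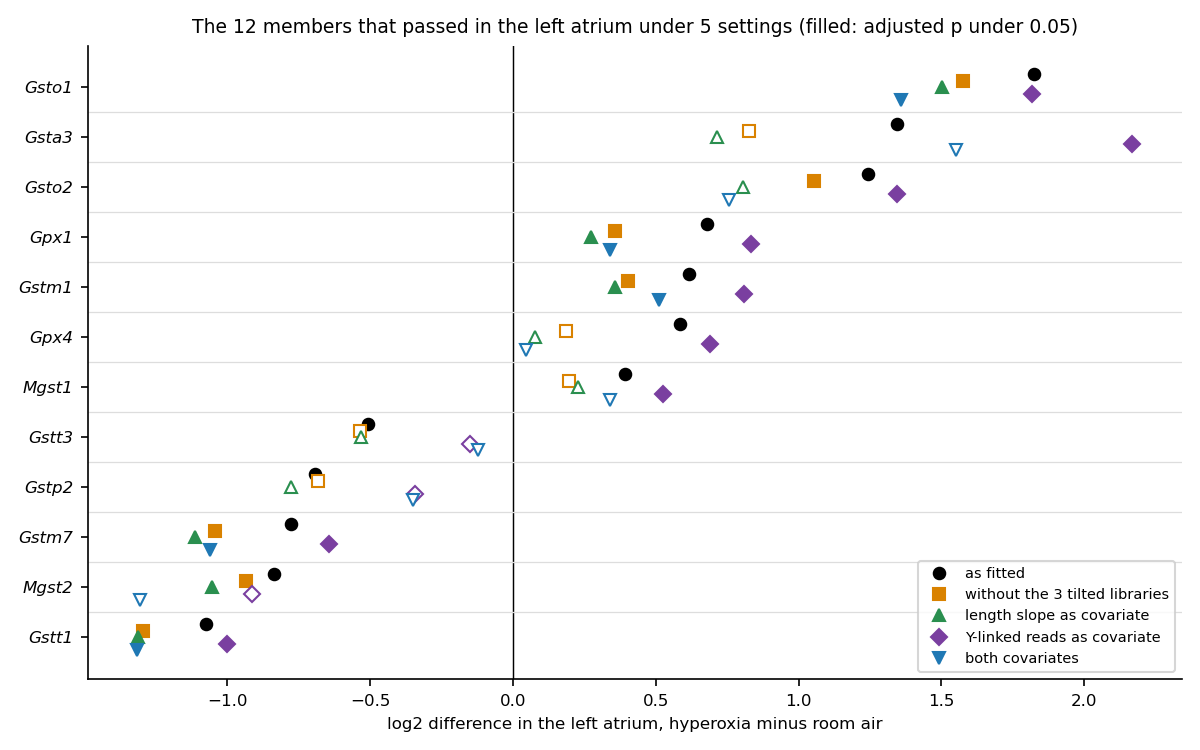
Log2 difference in the left atrium (hyperoxia minus room air) of the 12 genes that passed, under 5 settings. Filled symbols have an adjusted p under 0.05 and open symbols do not. Gsto1, Gpx1, Gstm1, Gstm7 and Gstt1 are filled throughout, while Gpx4 is filled at 0.58 as fitted and open at 0.08 with the length slope as a covariate.

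The 13 that did not pass in the atrium included Gpx3 at 1220, 1440, 1220, 1630 and 1080 CPM in hyperoxic atria, against 1380, 1370, 1330, 1610 and 1730 CPM in room-air atria. These ranges overlapped broadly, and the log2 difference was -0.17 (95% interval -0.46 to 0.11, adjusted p = 0.343). Gpx7 and Gpx8, peroxidases of the endoplasmic reticulum, were at -0.29 and 0.20, and Gpx7 passed as lower when hyperoxic atrium 2 (-0.40) or 4 (-0.40) was left out. Gstz1, the maleylacetoacetate isomerase of tyrosine breakdown, was at -0.10, the mitochondrial and peroxisomal Gstk1 at -0.07, Gstp1 at 0.09 and Gsta4, which conjugates 4-hydroxynonenal, at -0.01. Without the tilted libraries, Gpx7 (-0.60, adjusted p = 8.82e-05), Gstk1 (-0.59, adjusted p = 0.00169), Gstt2 (-0.45, adjusted p = 0.00691), Gsta4 (-0.43, adjusted p = 0.000453), Mgst3 (-0.33, adjusted p = 0.00833) and Gstm5 (-0.28, adjusted p = 0.0319) were lower. That setting called 4 higher and 9 lower, against 7 and 5 with all libraries, and 7 genes were called in both. Of all genes 39% passed under that setting.

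Summed over the class, soluble transferases reached 505 ± 107 CPM in hyperoxic and 435 ± 31.2 CPM in room-air atria, and peroxidases 1960 ± 394 CPM in hyperoxic and 1950 ± 181 CPM in room-air atria. Gpx3 made up most of the peroxidase sum. Without it the sum was 645 ± 185 CPM in hyperoxic and 470 ± 43.3 CPM in room-air atria, with 846 and 848 CPM in the tilted atria 2 and 4 and 482 to 526 CPM in atria 1, 3 and 5, where room-air atria had 423 to 535 CPM.

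In the left ventricle no tested gene of the families passed as higher and 5 passed as lower, where 10.9% of all genes passed (5.64% higher and 5.28% lower). The edgeR test had 11 of the 25 at an unadjusted p under 0.05, of which Gstm6 alone was higher, and DESeq2 and limma voom also called 0 higher. With the length slope as a covariate edgeR called 1 higher, Gsta4 (0.275, adjusted p = 0.0213), and 4 lower, where 12.3% of all genes passed. The median log2 difference over the 25 was -0.22, against -0.01 over all genes. In 3 genes the libraries did not overlap, all with hyperoxia below, where 12.4% of all genes did not overlap (6.51% above, 5.93% below). The 3 were Gstt1, Gpx7 and Gstt2, of which Gstt2 did not pass (-0.46, adjusted p = 0.0647).

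Gstt1 had 4.09, 2.67, 2.84, 2.66 and 3.22 CPM in hyperoxic ventricles, against 5.19, 5.85, 4.62, 5.13 and 5.23 CPM in room-air ventricles. As in the atrium, no hyperoxic library reached a room-air library. The log2 difference was -0.74 (SE 0.147, adjusted p = 0.00401), and -0.82 within the libraries with more Y-linked reads (adjusted p = 0.0119). Gpx7 had 36.5, 38.2, 29.6, 28.2 and 31.8 CPM in hyperoxic ventricles, against 52.4, 49.6, 43.9, 69.0 and 44.7 CPM in room-air ventricles. The tilted room-air ventricle 4 was the highest, and the other room-air libraries still lay above all hyperoxic ones. Gpx7 fell by 0.66 on the log2 scale (SE 0.157, adjusted p = 0.0127), by 0.54 without the tilted libraries (adjusted p = 0.000981) and by 0.57 within the libraries with more Y-linked reads (adjusted p = 0.0828).

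Gpx3 had 146, 144, 123, 112 and 127 CPM in hyperoxic ventricles, against 268, 145, 180, 164 and 184 CPM in room-air ventricles. The groups met at 145 and 146 CPM, and room-air ventricle 1, the library with most Myl7 among the ventricles (530 CPM), was the highest. Gpx3 fell by 0.53 on the log2 scale (SE 0.145, adjusted p = 0.0238). With Myl7 as a covariate it was -0.15 (adjusted p = 0.667). Its call was also lost without hyperoxic ventricle 4, 5 or 6 or room-air ventricle 1.

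The remaining calls rested on few reads. Gstt3 had 0.627, 1.08, 0.329, 0.584 and 0.731 CPM in hyperoxic ventricles, against 1.56, 1.06, 1.3, 1.27 and 1.19 CPM in room-air ventricles, and fell by 0.92 on the log2 scale (SE 0.234, adjusted p = 0.0172). Apart from hyperoxic ventricle 2 the groups were separate. Mgst2 had 0.239, 0.116, 0, 0.162 and 0.183 CPM in hyperoxic ventricles, against 0.742, 0.455, 0.366, 0.616 and 0.186 CPM in room-air ventricles, with 21 counts in the hyperoxic group and 62 in the room-air group. It was detected in 4 of 5 hyperoxic ventricles, and its log2 difference was -1.67 (SE 0.440, adjusted p = 0.0209). The Mgst2 call was lost without room-air ventricle 1 or 4.

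With Y-linked reads as a covariate 0 of the 25 passed in edgeR, with 7 at an unadjusted p under 0.05, where 1.53% of all genes passed. With Myl7 as a covariate 0 passed, with 6 at an unadjusted p under 0.05, where 0.548% of all genes passed. Without these covariates DESeq2 called 7, against 16.7% of all genes, and limma voom 5, against 17.9% of all genes. Within the libraries with more Y-linked reads 1 passed (Gstt1), against 1.53% of all genes, and without the 3 tilted libraries 8 did, against 19.4% of all genes. With limma voom the count of members stayed at 5, while the share over all genes rose from 10.9% as fitted. In the other settings of this paragraph the count and the share moved in the same direction.

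**Figure D3:**
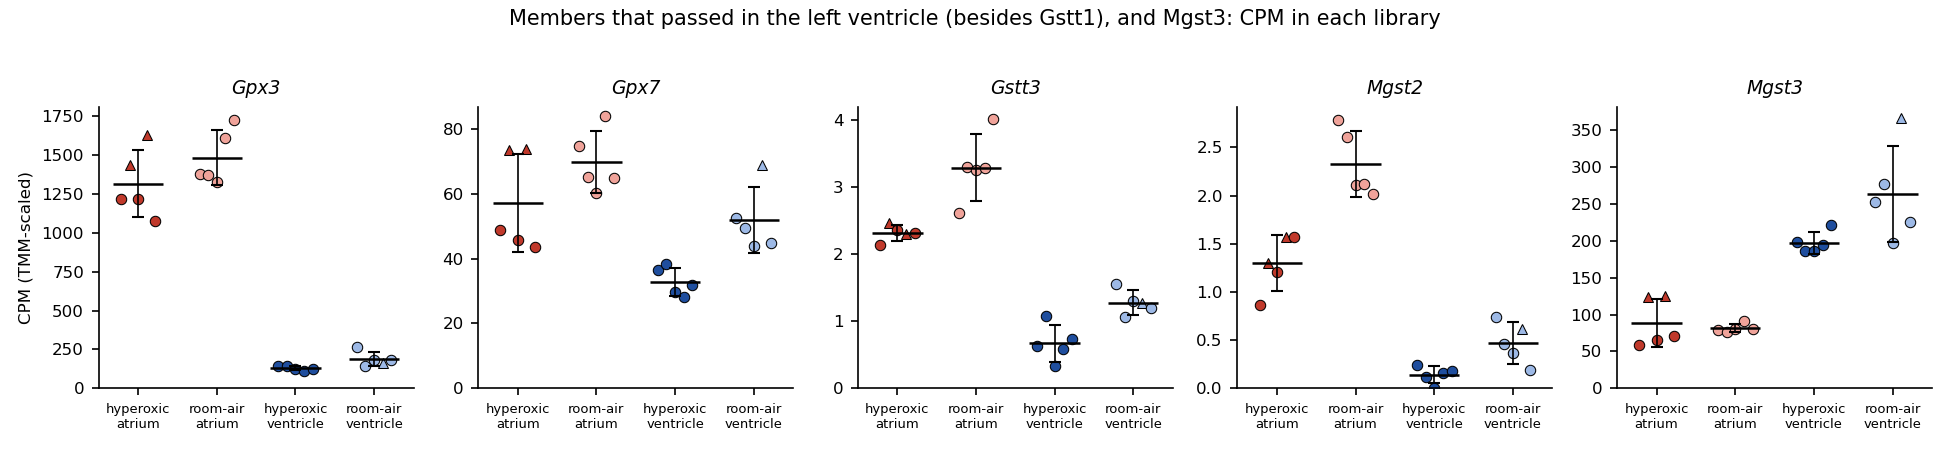
Level (CPM, linear axes from 0) by group for the genes that passed in the left ventricle besides Gstt1, and for Mgst3. Points are libraries, triangles the 3 tilted libraries, bars the mean and SD over n = 5. Gpx7 averaged 32.8 ± 4.31 CPM in hyperoxic and 51.9 ± 10.2 CPM in room-air ventricles, and Gpx3 averaged 130 ± 14.5 CPM in hyperoxic and 188 ± 47.2 CPM in room-air ventricles.

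Gstt1, Gstt3 and Mgst2 were lower in both chambers. All 7 that rose in the atrium (Gpx1, Gpx4, Gsta3, Gstm1, Gsto1, Gsto2 and Mgst1) did not pass in the ventricle, Gstm7 and Gstp2 passed as lower in the atrium and not in the ventricle, Gpx3 and Gpx7 in the ventricle and not in the atrium, and 11 passed in neither. Passing in 1 chamber does not show that the responses differed. That was tested directly as the atrial minus the ventricular response. There 6 of 25 passed, 5 with the atrial response above the ventricular and 1 below, which is 24.0% against 36.5% of all genes (17.0% above, 19.5% below). For Gsto2, Gsta3, Mgst1, Gstp2, Gpx3 and Gpx7, each of which passed in 1 chamber, the difference did not pass (adjusted p = 0.0558 for Gsto2 to 0.271 for Mgst1). The balance of directions depended on the length slope. With it as a covariate 8 passed, 1 above and 7 below, where 15.8% of all genes passed. Of the 6, Gsto1 and Gstm7 alone kept their calls there. With the length slope and Y-linked reads as covariates 2 passed above and 6 below, where 16.0% of all genes passed.

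Gsto1 gave the largest such difference among the 6. In the ventricle it had 69.6, 50.4, 82.2, 67.5 and 70.1 CPM in hyperoxia, against 62.9, 74.9, 57.0, 86.7 and 67.5 CPM in room air. The ventricular groups covered the same range (log2 -0.04, 95% interval -0.32 to 0.24), and the responses differed by 1.86 (SE 0.203, adjusted p = 1.29e-06). This call was kept under all 35 other settings, at 1.22 to 2.43. Gpx1 had 135, 118, 101, 137 and 148 CPM in hyperoxic ventricles, against 168, 177, 144, 209 and 152 CPM in room-air ventricles, mostly lower in hyperoxia. Its responses differed by 1.09 (SE 0.218, adjusted p = 0.000765), and by 0.38 with the length slope as a covariate (adjusted p = 0.0666). Gstm1 had 47.6, 57.7, 44.3, 46.0 and 50.4 CPM in hyperoxic ventricles, against 65.4, 54.8, 49.4, 64.7 and 52.6 CPM in room-air ventricles, with overlapping groups. Its responses differed by 0.84 (SE 0.173, adjusted p = 0.000969), and by 0.38 with the length slope as a covariate, where the call was lost (adjusted p = 0.0806).

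Gpx4 had 249, 226, 257, 247 and 294 CPM in hyperoxic ventricles, against 297, 324, 263, 428 and 269 CPM in room-air ventricles. The difference of its responses, 0.89 (SE 0.238, adjusted p = 0.00625), was 0.36 without the tilted libraries (adjusted p = 0.0297) and 0.01 with the length slope as a covariate (adjusted p = 0.965). Its highest values in the hyperoxic atrium and in the room-air ventricle were those of tilted libraries. Gstm7 was at 13.8 ± 2.01 CPM in hyperoxic and 14.8 ± 2.83 CPM in room-air ventricles, and its responses differed by -0.68 (SE 0.225, adjusted p = 0.0233). That call was lost with Myl7 as a covariate (-0.70, adjusted p = 0.0572), within the libraries with more Y-linked reads (-0.59, adjusted p = 0.104) and with a replicate block within oxygen level. Gpx8 passed at 0.50 (SE 0.179, adjusted p = 0.0347) and lost that call under 14 of 35 other settings, among them leaving out hyperoxic atrium 2 or 4, hyperoxic ventricle 2 or 6, room-air atrium 2, 3 or 5, or room-air ventricle 4. For Gstt1 the difference of the responses was -0.33 (95% interval -0.72 to 0.06, adjusted p = 0.194) and did not pass.

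**Figure D4:**
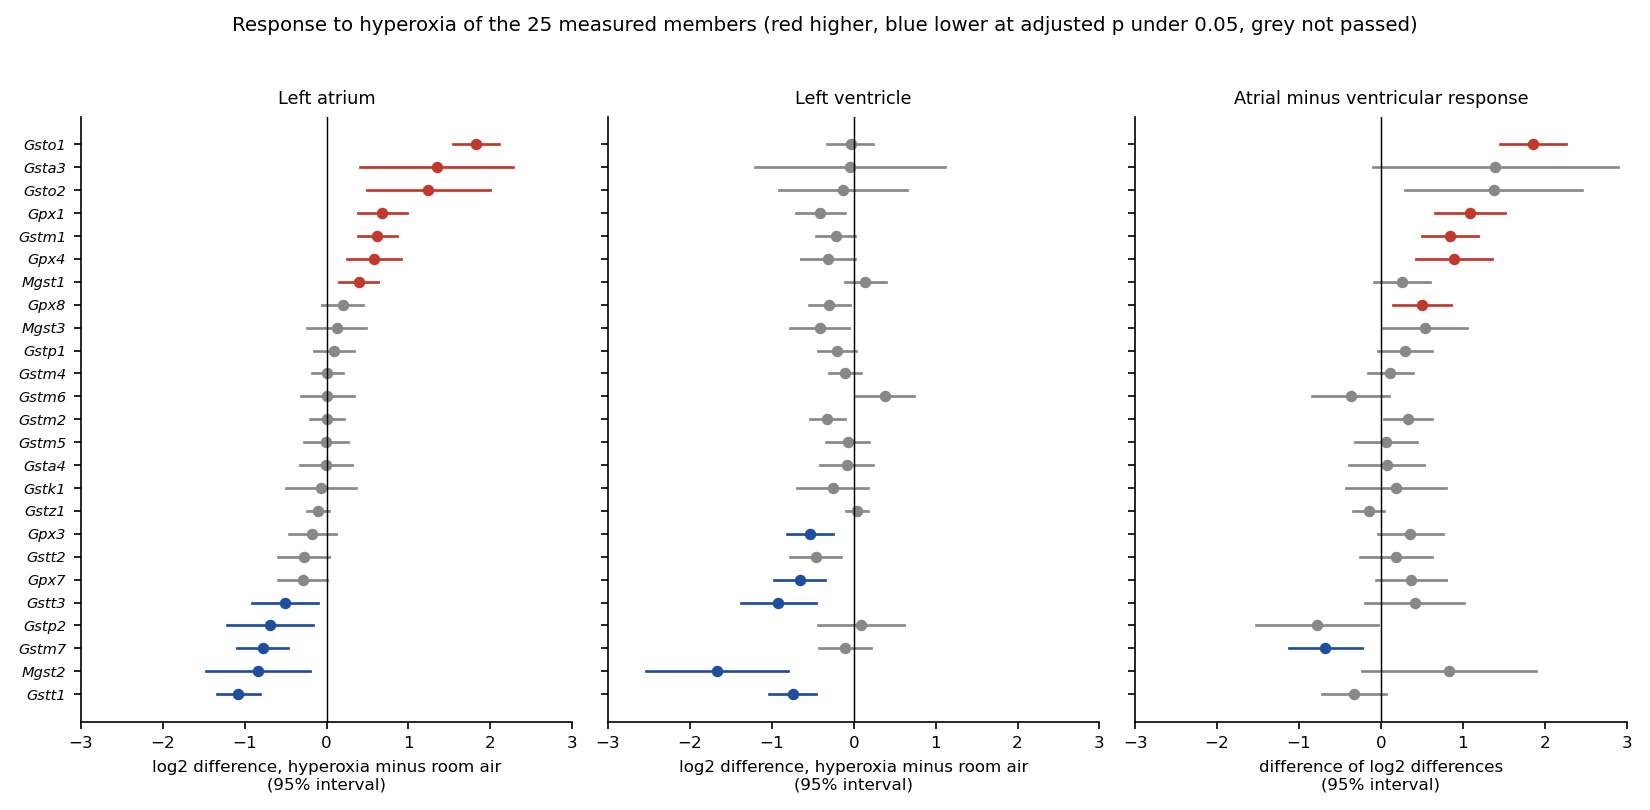
Log2 difference between hyperoxia and room air by chamber, and the difference of these responses, for the 25 tested genes. Points are estimates, lines 95% intervals, red higher and blue lower at an adjusted p under 0.05. Gsto1 stands at 1.82 in the atrium and -0.04 in the ventricle, while Gstt1 lies below 0 in both.

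The chambers differed in room air in 14 of the 25, with 11 higher and 3 lower in the atrium. This is 56.0%, against 55.0% of all genes (28.7% higher, 26.3% lower), a share near the background. In 8 of those higher and all 3 of those lower the libraries did not overlap, where 46.5% of all genes did not (25.1% with the atrium above, 21.4% with it below). Gpx3 led, with the room-air atrial values given above, 1330 to 1730 CPM, against 145 to 268 CPM in room-air ventricles (log2 2.98, SE 0.155, 7.88-fold, adjusted p = 5.49e-13). Gstt1, at 19.6 ± 1.35 CPM in room-air atria and 5.20 ± 0.436 CPM in room-air ventricles, was higher by 1.91 (SE 0.140, adjusted p = 1.55e-10). Mgst1 had 12.8, 8.81, 12.2, 10.5 and 12.9 CPM in room-air ventricles, far below its 28.3 to 36.3 CPM in room-air atria (log2 1.51, SE 0.128, adjusted p = 1.54e-09). In hyperoxic ventricles Mgst1 had 13.7, 14.5, 10.7, 11.9 and 12.2 CPM, so the atrial excess was there at either oxygen level.

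Gsto1, Mgst3 and Gpx4 were lower in the atrium than in the ventricle in room air. Gsto1 was at 24.1 ± 2.38 CPM in room-air atria and 69.8 ± 11.5 CPM in room-air ventricles (log2 -1.53, SE 0.146, adjusted p = 1.09e-08). Mgst3 was at -1.69 (SE 0.189, adjusted p = 1.22e-07) and Gpx4 at -0.91 (SE 0.170, adjusted p = 0.000102). The other calls, all higher in the atrium, were Mgst2 at 2.30, Gstm6 at 1.74, Gsta3 at 1.58, Gstt3 at 1.36, Gstm2 at 0.84, Gsta4 at 0.51, Gpx7 at 0.43 and Gpx8 at 0.33. Those of Gpx7 and Gpx8 were lost under 5 and 9 of 36 other settings, among them leaving out room-air atrium 4, room-air ventricle 3 or 5, or hyperoxic ventricle 5 for either gene, and room-air atrium 1 or room-air ventricle 1 or 2 for Gpx8.

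In hyperoxia 18 of the 25 differed between the chambers, 14 higher and 4 lower in the atrium. That is 72.0%, against 48.8% of all genes (25.2% higher, 23.6% lower). In 12 of those higher and 2 of those lower the libraries did not overlap, where 32.9% of all genes did not (16.6% above, 16.3% below). Both chamber comparisons share no libraries, and the change between them is the tested difference of the responses above. Gsto1, at 85.4 ± 19.2 CPM in hyperoxic atria and 68.0 ± 11.4 CPM in hyperoxic ventricles, had a log2 difference of 0.33 that did not pass (95% interval 0.05 to 0.61, adjusted p = 0.0591). Gsto1 passed in this comparison under 12 of 36 other settings, and its log2 difference ran from -0.01 to 0.9 over them. Gpx1 (0.96, SE 0.155, adjusted p = 2.15e-05) and Gstm1 (0.71, SE 0.123, adjusted p = 4.55e-05) were higher in hyperoxic atria than in hyperoxic ventricles, and in room air neither passed (-0.13 for each). Gpx3 was at 3.34 (SE 0.158, 10.1-fold) and Mgst3 at -1.15 (SE 0.186). The lower calls besides Mgst3 were Gstp2 at -0.69, Gstm7 at -0.55 and Gstz1 at -0.27. The call of Gstp2 was lost under 16 of 36 other settings, among them leaving out hyperoxic atrium 4 or 5 or hyperoxic ventricle 2, 4 or 6. That of Gstt2 (0.44) was lost under 9, among them leaving out hyperoxic atrium 2 or 4 or hyperoxic ventricle 5 or 6, and that of Gsta4 (0.58) was lost under 4, among them the setting without the tilted libraries.

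**Figure D5:**
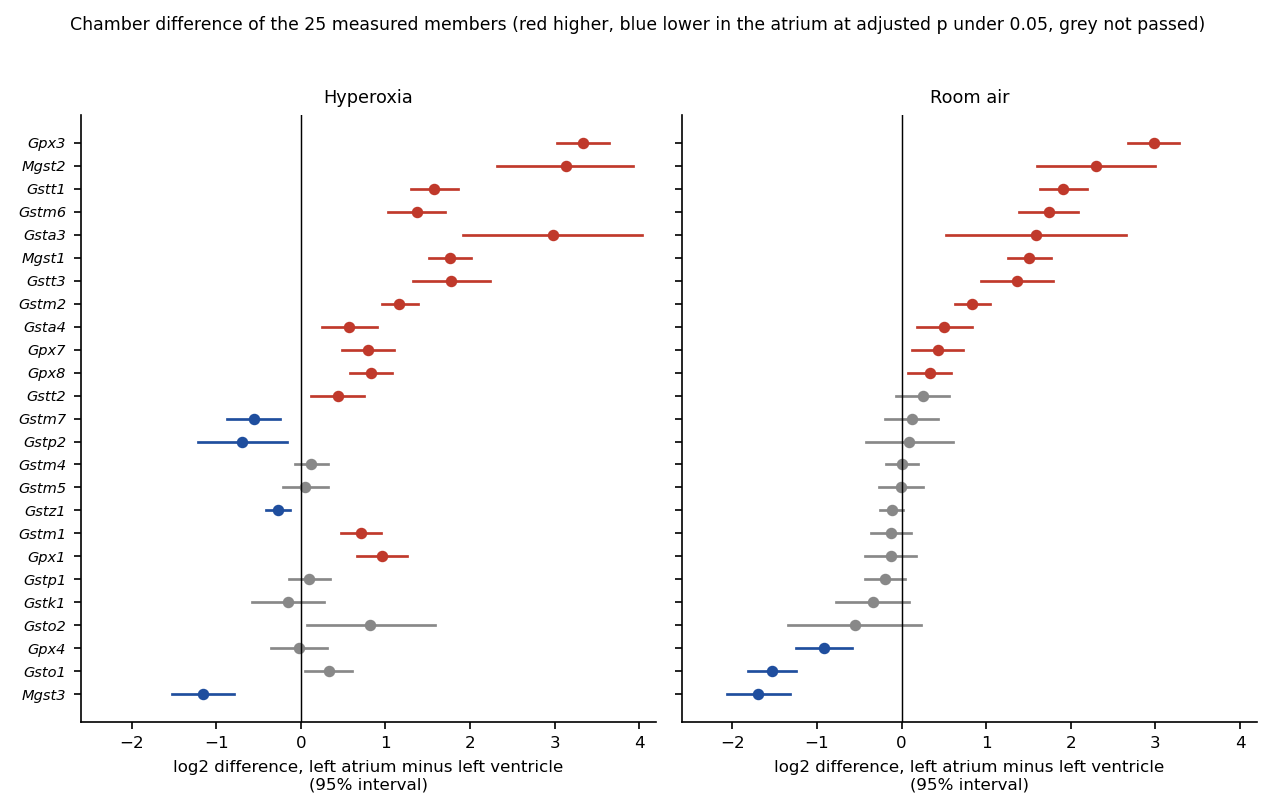
Log2 difference between left atrium and left ventricle of the 25 tested genes in hyperoxia and in room air. Points are estimates, lines 95% intervals, red higher and blue lower in the atrium at an adjusted p under 0.05. Gpx3 leads on both sides (3.34 in hyperoxia, 2.98 in room air), and Gsto1 lies at 0.33 in hyperoxia and -1.53 in room air.

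The supply of glutathione was followed in genes of its synthesis and breakdown, of which 17 of 19 were tested. In the atrium 8 were higher and 2 lower, with a median log2 difference of 0.30, against -0.06 over all genes. The counts of this list and of those that follow stand against 19.7% of all genes higher and 24.2% lower in the atrium, and 5.64% higher and 5.28% lower in the ventricle. Chac1, which degrades cytosolic glutathione and is a target of ATF4, averaged 17.5 ± 3.70 CPM in hyperoxic and 0.470 ± 0.123 CPM in room-air atria (log2 5.21, SE 0.417, adjusted p = 3.63e-09). Slc3a2, the heavy chain of the cystine carrier, averaged 155 ± 22.7 CPM in hyperoxic and 65.1 ± 2.81 CPM in room-air atria (1.25, SE 0.0939, adjusted p = 1.50e-09). Gss, glutathione synthetase, rose by 0.93 (SE 0.101, adjusted p = 2.59e-07) and the aminopeptidase Lap3 by 0.85 (SE 0.102, adjusted p = 8.85e-07). In the ventricle Chac1 alone of the 17 passed in edgeR as fitted (2.88, SE 0.431, adjusted p = 0.000533). It averaged 3.47 ± 2.77 CPM in hyperoxic and 0.466 ± 0.212 CPM in room-air ventricles. Of the 17, 5 had an unadjusted p under 0.05 there. DESeq2 called 2 higher and 1 lower in the ventricle, limma voom 2 and 2, and edgeR without the tilted libraries 2 and 2.

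Genes that reduce glutathione and thioredoxin or supply NADPH numbered 15, of which 9 were higher and 1 lower in the atrium (median 0.46). The mitochondrial thioredoxin reductase Txnrd2 rose by 0.75 (SE 0.109, adjusted p = 1.07e-05), its cytosolic counterpart Txnrd1 by 0.62 (SE 0.101, adjusted p = 3.88e-05), glutathione reductase Gsr by 0.50 (SE 0.0911, adjusted p = 0.000147) and transketolase Tkt by 0.46 (SE 0.0896, adjusted p = 0.000242). Gsr stood at 39.8 ± 3.89 CPM in hyperoxic and 28.2 ± 1.60 CPM in room-air atria. Of other enzymes that use glutathione, 18 of 19 were tested, with 9 higher and 1 lower (median 0.45). The channel relative Clic5 rose by 1.14 (SE 0.133, adjusted p = 6.08e-07), the glutaredoxin Glrx3 by 0.99 (SE 0.147, adjusted p = 1.36e-05), the prostaglandin E synthase Ptges2 by 0.79 (SE 0.127, adjusted p = 3.05e-05) and Adh5, which clears S-nitrosoglutathione, by 0.59 (SE 0.125, adjusted p = 0.000586).

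The 12 genes listed for selenocysteine synthesis and insertion gave 5 higher and 4 lower in the atrium (median 0.20). That list also held genes of selenium transport or binding, among them Lrp8, Selenop and Selenbp1. Lrp8, a receptor for selenoprotein P, averaged 39.9 ± 15.7 CPM in hyperoxic and 8.15 ± 0.982 CPM in room-air atria (2.29, SE 0.235, adjusted p = 1.11e-07). The selenium-binding protein gene Selenbp1 fell by 1.21 (SE 0.132, adjusted p = 2.62e-07), Sephs1 by 0.58 (SE 0.0686, adjusted p = 7.86e-07) and Secisbp2l by 0.52 (SE 0.130, adjusted p = 0.00261). Of 9 factors of antioxidant response elements, the small MAF genes Mafg (0.74, SE 0.114, adjusted p = 1.99e-05), Maff (0.54, SE 0.147, adjusted p = 0.00494) and Mafk (0.28, SE 0.103, adjusted p = 0.0299) rose and Bach2, a repressor, fell by 0.50 (SE 0.142, adjusted p = 0.00716). The NRF2 gene Nfe2l2 itself did not pass.

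Without the tilted libraries the atrial counts of higher and lower genes were 8 and 2 for synthesis and breakdown, 9 and 1 for reduction and NADPH, 7 and 3 for other glutathione-using enzymes, 3 and 4 for selenocysteine and 3 and 0 for the factors. The medians of the first 4 lists were then 0.29, 0.23, 0.24 and 0.18. With the length slope as a covariate they were 0.26, 0.19, 0.18 and 0.12. In the ventricle edgeR as fitted called none of the genes of reduction and NADPH, selenocysteine or the factors. Unadjusted p under 0.05 were reached there by 5, 1 and 3 genes of these lists. Without the tilted libraries edgeR called 1 higher and 2 lower of reduction and NADPH and 1 higher of the factors. With the length slope as a covariate it called 1 higher of reduction and NADPH and 1 lower of the factors. DESeq2 called 1 gene of reduction and NADPH in the ventricle and none of the other 2 lists, and limma voom called 2 of reduction and NADPH and 1 of the factors. Among other glutathione-using enzymes 1 was higher and 1 lower in the ventricle in edgeR as fitted. The higher was Hpgds, a prostaglandin D synthase related to the sigma transferases (0.68, SE 0.184, adjusted p = 0.023). The lower was Clic1 (-0.48, SE 0.119, adjusted p = 0.0152).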

How the data were processed

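Libraries were made with a stranded mRNA kit, per the labels' protocols. The authors deposited whole-number counts of reads per gene for all 20 libraries. The submitters' processing notes name fastp 0.20.1, STAR 2.7.6a, Subread 2.0.1 with featureCounts, Salmon 1.3.0 and GRCm38.p6. Which annotation was counted, and whether strand was used, is not given in the sources used here.

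From the deposited counts, all 20 libraries were fitted with edgeR 4.0.16 in R 4.3.3 (TMM scaling, quasi-likelihood F-test, 1 coefficient per group). The low-count filter of edgeR kept 16598 genes, and p-values were adjusted by Benjamini-Hochberg over them. The common biological coefficient of variation was 0.183. Alternatives used DESeq2 1.42.0, limma 3.58.1, other scalings, filters and covariates, a replicate block and leaving out libraries. The script was tested on simulated counts. Groups came from sample titles and treatments. P-values measure the spread between these libraries.

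Every gene matching the naming rule was counted. Per-library values were given for the genes with the smallest p in each comparison (up to 8 in the atrium, 5 in the ventricle, 4 in the difference and 4 between chambers in room air) and for the 3 highest per kilobase, with up to 4 genes per pathway list. The genes and lists were chosen with earlier results of these data known. Promoter windows came from RefSeq and gene positions from GENCODE, both on GRCm38. The list of conjugate exporters is not reported here.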

Additional observations from a re-analysis of the deposited data

Results flagged for a closer look

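In 6 of 100 combinations of gene and group, 1 library lay far from the other 4, where chance gives about 1 in 20. Gpx8 was at 57.9 CPM in hyperoxic ventricle 1, against 46.3 to 49.1 CPM in the other hyperoxic ventricles. Room-air atrium 4 was high for Gstk1 (17.3 CPM, others 13.3 to 14.1 CPM), Gstm2 (80.4 CPM, others 67.5 to 70.9 CPM) and Mgst3 (91.4 CPM, others 76.7 to 80.9 CPM). Gstt2 was at 12.9 CPM in room-air ventricle 4, a tilted library, against 7.12 to 7.52 CPM in the others. Gstz1 was low in room-air ventricle 3, at 34.6 CPM against 39.4 to 41.0 CPM.

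The response to hyperoxia differed between the chambers in 6 genes by the interaction test of edgeR. Atrial minus ventricular log2 differences were 1.86 for Gsto1, 1.09 for Gpx1, 0.89 for Gpx4, 0.84 for Gstm1, 0.50 for Gpx8 and -0.68 for Gstm7. With the length slope as a covariate 8 genes passed, 1 with the atrial response above the ventricular and 7 with it below.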

How the results depend on the processing

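The calls of Gsto1, Gstt1, Gstm1 and Gpx1 in the atrium held under all 35 alternatives. The atrial count of 12 became 19 with limma voom (7 higher, 12 lower) and 8 to 12 when 1 library was left out. Of all genes 43.9% passed in the atrium as fitted, 55.4% with limma voom and 38.0% to 46.2% when 1 library was left out. The ventricular count of 5 was 0 with Myl7 and 0 with Y-linked reads as a covariate in edgeR (6 and 7 at an unadjusted p under 0.05), against 7 in DESeq2 and 5 in limma voom. It was 2 with the length slope and Y-linked reads as covariates, 1 within libraries with more Y-linked reads, 8 without the 3 tilted libraries and 1 without hyperoxic ventricle 4 and room-air ventricles 1 and 4. Leaving out 1 library gave 3 (without room-air ventricle 1) to 7. Of all genes 10.9% passed in the ventricle as fitted, 0.548% with Myl7, 1.53% with Y-linked reads, 16.7% in DESeq2 and 17.9% in limma voom. With the length slope and Y-linked reads as covariates 6.15% of all genes passed, and without the 3 tilted libraries 19.4%. Without the 3 ventricles named above 1.81% passed, and with 1 library left out 5.5% to 15.0%. The setting with both covariates and the one without 3 ventricles were chosen after seeing the data. Oxygen level and Y-linked reads cannot be fully told apart. The cause of these changes was not tested.

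Whether replicate numbers pair the samples is not stated. Correlations of same-numbered deviations between atria and ventricles of the same oxygen level ran from 0 to 0.407. They were not above 0.1 in every pair, so no block was used. Between hyperoxic and room-air libraries of the same chamber, which cannot share a pup, the correlations ran from -0.201 to 0.464. Between room-air atria and ventricles they were 0.117, 0.404, 0.407 and 0.167 for numbers 2 to 5 and 0 for number 1. Hyperoxic atria and ventricles 1, 2, 4 and 5 matched by number in whether Y-linked reads exceeded Xist. Both are hints from the data, not the design. With a replicate block the counts were 11 in the atrium, 8 in the ventricle, 7 for the difference, 14 between chambers in room air and 18 in hyperoxia. With a block within oxygen level they were 6, 14 and 16 for the last 3. Of all genes 46.7%, 15.6%, 41.5%, 57.0% and 49.4% passed with the replicate block, in the same order. With the block within oxygen level 37.3%, 54.0% and 44.7% of all genes passed for the last 3.

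Some genes changed sign. The changed values had an adjusted p under 0.05 in their settings, except those of Gpx4 and Gpx8 in the atrial minus ventricular response. In the atrium Mgst3 was -0.481 with both covariates, -0.441 with the length slope, -0.264 with voom and -0.33 without the tilted libraries, Gstm2 was -0.264 with both and -0.241 with the slope, and Gpx8 was -0.248 with both. In the ventricle Gsta4 was 0.275 with the slope. The atrial minus ventricular response with both covariates was -0.005 for Gpx4, -0.136 for Gpx8, -0.841 for Gsta4, -0.916 for Gstk1, -0.595 for Gstm5 and -0.468 for Mgst3. With the slope it was -0.38 for Gpx7, -0.079 for Gpx8, -0.77 for Gsta4, -0.89 for Gstk1, -0.531 for Gstm5 and -0.448 for Mgst3. With voom it was -0.412 for Gsta4 and -0.481 for Gstk1, and without the tilted libraries -0.448 for Gsta4. Between chambers Gstm5 was -0.305, -0.257 and -0.24 in hyperoxia with both, the slope and voom, and 0.29 and 0.274 in room air with both and the slope. The cause was not tested. Without TMM scaling the soluble transferase sum was 474 CPM in room-air atria and 362 CPM in hyperoxic ventricles, and the microsomal sum 127 CPM in room-air atria. Fitting only the libraries compared gives no separate value for the difference. Genes under 1 CPM, such as Mgst2 in ventricles, rest on few counts.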
